A study of Mus musculus with 4 samples.

Results

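Complex I genes were examined as the set of all array genes whose name starts with Nduf, the symbol root for nuclear-encoded subunits and assembly factors of mitochondrial NADH dehydrogenase. The name alone chose the members, and 41 genes of the 26487 gene features on the array carry it, read by 58 targets. RNA came from the back skin of BALB/c males, 8 weeks old, and each of 4 groups was read on 1 NimbleGen array. The series title speaks of epidermis, while the sample labels give skin. The Control mice received an oil/water cream, the ATRA mice a cream with 0.1% all-trans retinoic acid, the ATRA+NIC mice that cream together with a nicotinamide (NIC) cream, and the NIC mice the nicotinamide cream alone, each for 5 days. All groups are thus cream-treated, no untreated skin was measured, the strength of the nicotinamide cream is not given, and the labels do not say whether an array holds RNA of a single mouse or of several.

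Complex I is the entry point of the mitochondrial respiratory chain. It takes electrons from NADH at the tip of its peripheral arm, passes them along iron-sulfur clusters to ubiquinone, and moves protons through its membrane arm. Core subunits carry the cofactors and the quinone site, accessory subunits surround and stabilise them, and assembly factors build the enzyme without staying in it. Retinoic acid acts through nuclear receptors on transcription, and nicotinamide is a precursor of NAD, whose reduced form is the substrate of complex I.

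Values are RMA intensities as the authors deposited them, and a difference is a difference of log2 intensities. The median over all targets lay between 102 and 105 on the 4 arrays, and the random control probes, a measure of background, read from 34.0 to 36.3. All 41 complex I genes passed the filter on dim genes, as did 15597 features in all, and each of the 41 read at least 2 times the random probes on every array. Their intensities ran from 110 to 11321. Since each group has 1 array, no replicate spread exists to judge a difference by, and so few arrays leave its precision unknown. In whole skin, fewer cells of a type and less RNA per cell cannot be told apart.

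Complex I transcripts were close in level under all 4 creams. In ATRA minus Control 0 of the 41 genes were at least 2-fold apart, against 10.2% of all genes compared (4.35% higher and 5.85% lower). In ATRA+NIC minus NIC the count was again 0, against 15.2% (7.44% higher, 7.77% lower). NIC minus Control gave 0 against 11.5% (5.59% higher, 5.90% lower), and ATRA+NIC minus ATRA 0 against 10.2% (5.51% higher, 4.65% lower). The creams together against Control also gave 0, against 13.5% (6.21% higher, 7.33% lower). The shares of all genes, here and at 1.5-fold below, were not matched for brightness, and dim genes vary more on these arrays. The medians of the 41 genes were 0.09, -0.08, 0.08, 0.04 and 0.12 in that order, and those of all genes 0.05, 0.0004, 0.03, -0.03 and 0.01.

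The range over the 4 arrays, highest over lowest, had a median of 1.35-fold among the 41 complex I genes and of 1.64-fold among all genes compared. Bright genes vary less on these arrays, and 27 of the 41 lie in the brightest quartile of genes. Within that quartile the median range was 1.31-fold for complex I genes and 1.44-fold for all. In the third quartile, which holds 10 complex I genes, it was 1.41-fold and 1.54-fold. A range of at least 2-fold was reached by 0 of the 41 and by 31.0% of all genes. That share of all genes was 12.4% in the brightest quartile, 18.1% in the third, 28.1% in the second and 65.5% in the dimmest. The dimmest quartile holds only 1 of the 41, so the contrast with 31.0% is partly one of brightness. Ndufs4 had the widest range of the 41, at 1.00 log2 and just short of 2-fold. The comparison by brightness was made after values were seen.

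**Figure D1:**
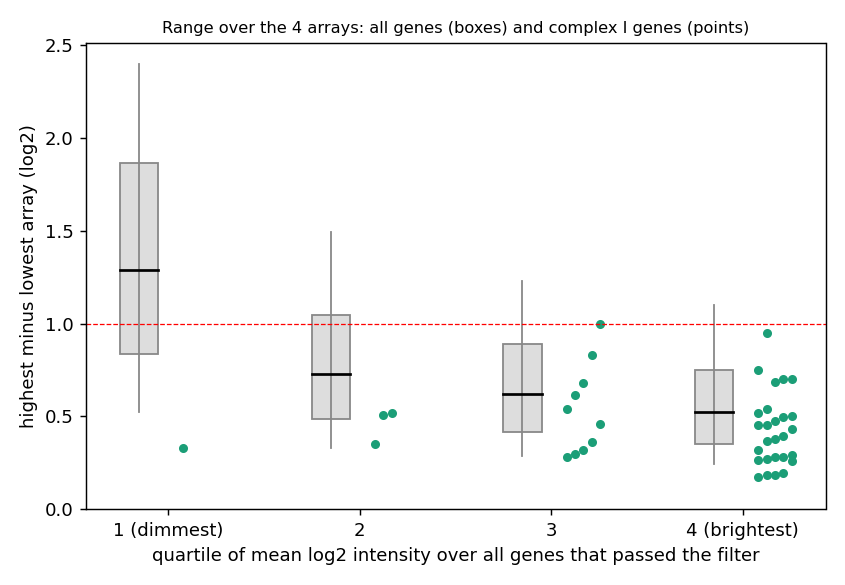
Highest minus lowest array on the log2 scale, by quartile of mean intensity. Grey boxes span percentiles 25 to 75 of all genes with the median as a bar and lines from percentile 10 to 90, green points are the 41 complex I genes, and the dashed line marks 2-fold, which no point passes.

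At the lower mark of 1.5-fold, 8 of the 41 genes were past it in at least 1 of the 5 differences, Ndufa2, Ndufa4l2, Ndufaf2, Ndufaf4, Ndufb8, Ndufs3 and Ndufs4 among them. In ATRA minus Control 3 were higher, against 13.2% of all genes, and 2 lower, against 12.8% (26.0% either way). In ATRA+NIC minus NIC 1 was higher and 1 lower, against 17.3% and 16.4% (33.7% either way). In NIC minus Control 4 were higher and 1 lower, against 2346 of all 15597 genes higher and 14.7% of them lower, or 29.8% either way. ATRA+NIC minus ATRA had 1 higher and 1 lower, against 11.5% and 12.2% (23.7% either way). Both creams against Control had 2 higher and 2 lower, against 2343 of the 15597 genes higher and 15.5% lower, or 30.5% either way.

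An additive fit of both creams over all 4 arrays (limma, with 1 residual degree of freedom) called 0 of 41 complex I genes for ATRA and 0 for NIC after Benjamini-Hochberg adjustment over all genes. Their smallest limma adjusted p was 0.810 for ATRA, of Ndufaf2, and 0.950 for NIC, of Ndufs4. At an unadjusted p under 0.05 the fit also had 0 and 0 of 41, against 7.92% and 5.35% of all genes. Over all genes 0.487% fell with ATRA and 0% rose, and with NIC 0% fell and 0% rose. The standard errors of the 41 genes ran from 0.30 to 0.42 log2. They rest mostly on a spread that limma pools over all genes (4.04 prior against 1 residual degree of freedom). The counts of 0 thus largely restate that the differences were small. The p-values hold only where the creams act additively, and a p that misses the threshold does not show that a gene stayed the same.

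**Figure D2:**
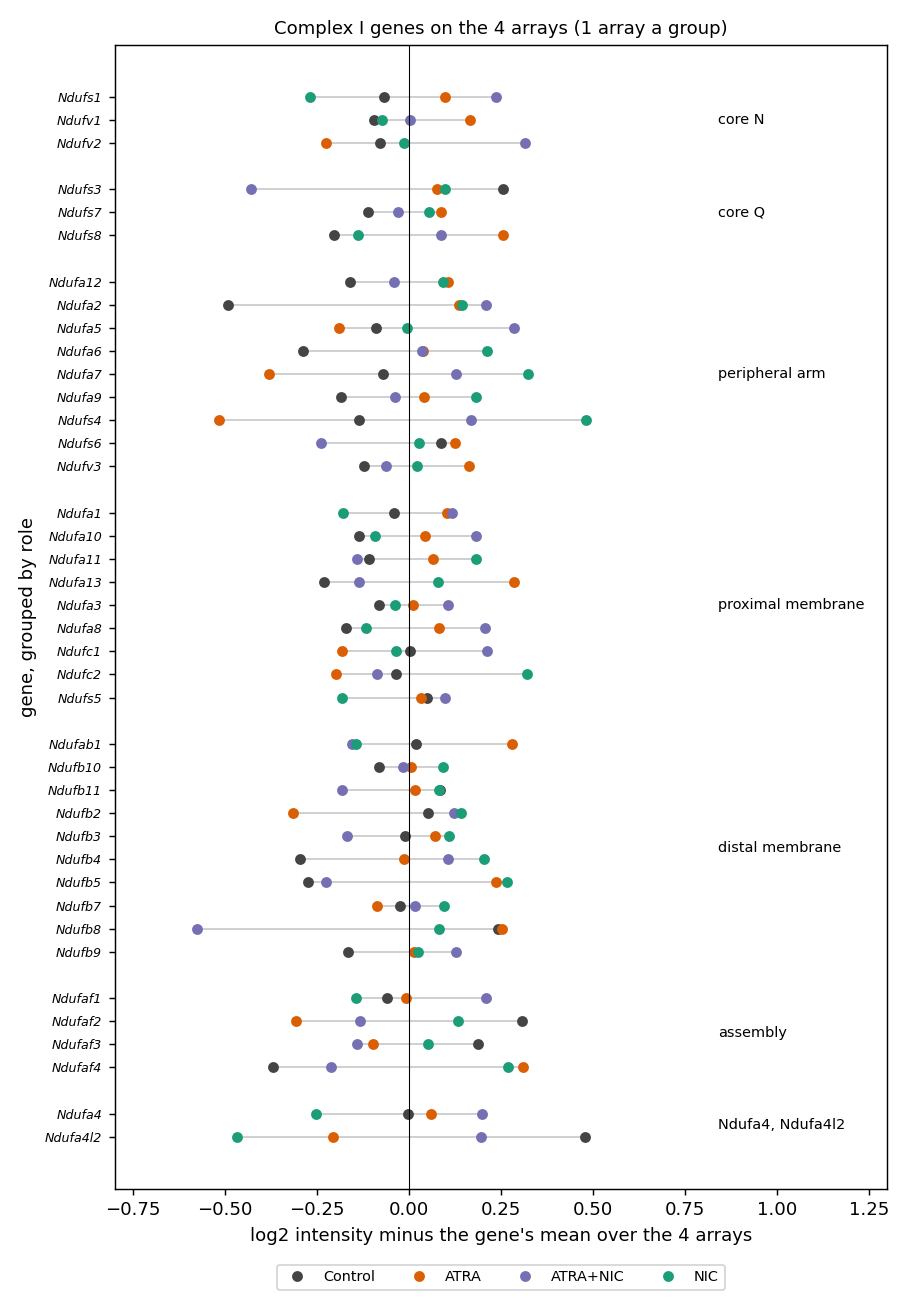
Log2 intensity of the complex I genes reported singly on the 4 arrays, as the difference from that gene's mean over the arrays (horizontal axis), with genes grouped by role. Each point is 1 array, the grey line joins lowest to highest, and the widest line is that of Ndufs4, from ATRA at the low end to NIC at the high end.

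The electron input module holds the NADH site and has 3 core subunits in the nuclear genome. Ndufv1, which binds NADH and the flavin (chromosome 19, 4007504 to 4012725 on build MM9) read 4169 under Control, 4996 under ATRA, 4461 under ATRA+NIC and 4232 under NIC. Control and NIC were nearly equal and ATRA was the highest, by 0.26 over Control. Ndufv2, an iron-sulfur subunit, read 379 under Control, 342 under ATRA, 498 under ATRA+NIC and 396 under NIC, with ATRA+NIC the highest. That value averages a bright target and one near background, and the bright target alone read 2325, 2761, 2041 and 1929 in the same order, with ATRA the highest. Ndufs1, the largest iron-sulfur subunit, read 132, 148, 163 and 115 in that order as the mean of 4 targets.

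Ndufs1 shows how much the choice of target matters. Its brightest target read 1024 under Control, 1501 under ATRA, 1361 under ATRA+NIC and 1511 under NIC, lowest on Control. Of its other targets 1 read between 109 and 154, and 2 stayed below 2 times the random probes on at least 3 arrays. ATRA+NIC minus NIC was 0.51 for the mean of targets and -0.15 for the brightest, so the sign of this difference turns with the target.

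The quinone module hands electrons to ubiquinone. Ndufs3, a core subunit of this module, read 3150 under Control, 2782 under ATRA, 1959 under ATRA+NIC and 2822 under NIC. It was lowest with both creams, at -0.69 against Control, while either cream alone stood at -0.18 and -0.16. A target described as similar to Ndufs3, Gm12251, read 2968, 2976, 2298 and 2199 in the same order, lowest on NIC. Probes of such a pair may read each other's transcripts, so the single values of Ndufs3 are uncertain. Ndufs7, which carries the cluster next to the quinone, read 4599, 5268, 4859 and 5154 under Control, ATRA, ATRA+NIC and NIC, a range of only 0.20. Ndufs8, with a further pair of clusters, read 285, 392, 349 and 298 in the same order. By its brightest target Ndufs8 read 753, 831, 996 and 769, which turns ATRA+NIC minus ATRA from -0.17 to 0.26.

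Accessory subunits of the peripheral arm, 9 genes, had medians of 0.22 and -0.18 in the ATRA differences without and with nicotinamide, and of 0.37 and -0.0044 in the NIC differences without and with ATRA. In NIC minus Control 8 of the 9 were above 0, against 27 of the 41 complex I genes and 52.3% of all genes. Ndufs4, whose loss in mice gives a fatal encephalopathy with complex I deficiency (chromosome 13, 115078857 to 115178260), read 617 under Control, 473 under ATRA, 760 under ATRA+NIC and 945 under NIC. Both arrays with nicotinamide were above both without it, and it was the only 1 of the 41 at least 1.5-fold the same way in both NIC differences, at 0.62 and 0.68. Over all genes 5.18% did so. Both ATRA differences were negative, at -0.38 and -0.31. The limma NIC term was 0.65 (SE 0.30, limma adjusted p = 0.950).

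Ndufa7, an accessory subunit of the same arm, shared this order with 2402 under Control, 1935 under ATRA, 2754 under ATRA+NIC and 3153 under NIC. Its NIC differences were 0.39 and 0.51. Ndufa2, which has a thioredoxin-like fold, was lowest on Control, with 1086 under Control against 1680, 1768 and 1688 under ATRA, ATRA+NIC and NIC. Its ATRA differences were 0.63 and 0.07 and its NIC differences 0.64 and 0.07. The differences from Control share the single Control array, so they are not separate observations. Ndufa6 was lowest on Control as well, at 1762 against 2209, 2203 and 2490. Ndufa5 read 854, 796, 1106 and 905 in the order Control, ATRA, ATRA+NIC and NIC, and Ndufs6, a zinc-binding subunit, 704, 723, 562 and 675. By its brightest target Ndufs6 read 1739, 1615, 1903 and 1561, so ATRA+NIC turns from the lowest array to the highest.

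**Figure D3:**
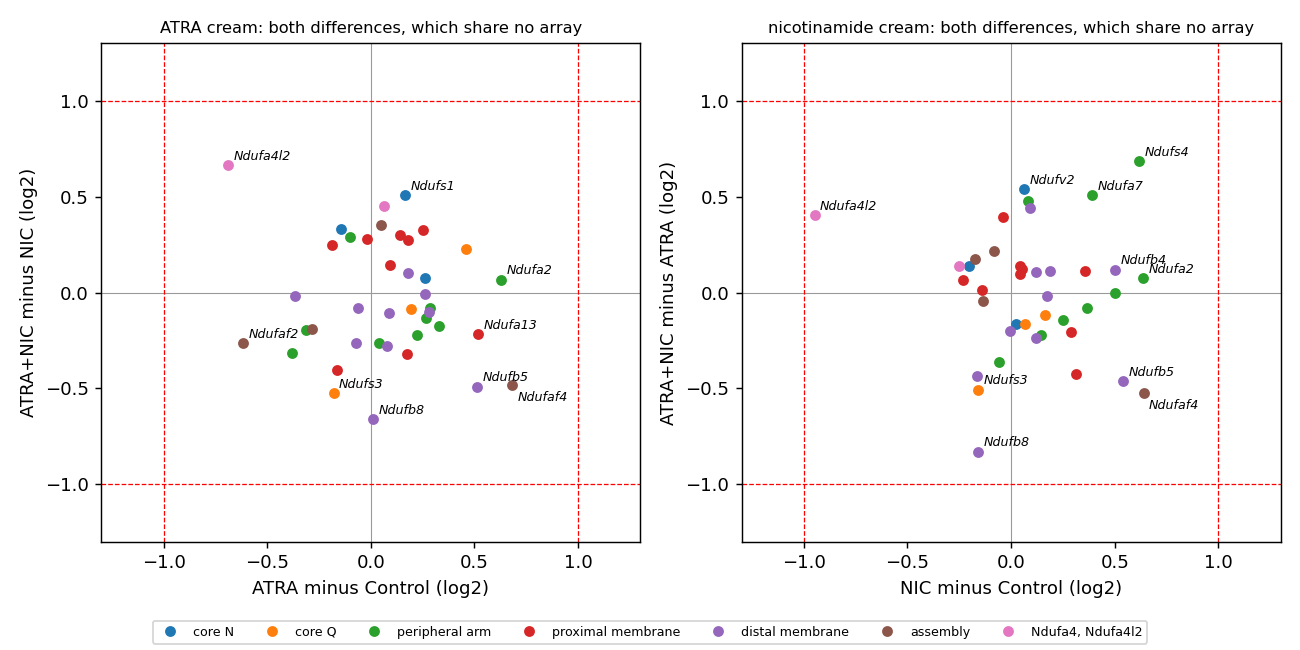
Differences (log2) of the complex I genes reported singly, for the ATRA cream (left) and the nicotinamide cream (right), without the other cream on the horizontal and with it on the vertical axis, coloured by role. The dashed lines mark 2-fold, which no gene passes, and Ndufs4 is the gene farthest into the upper right of the right panel.

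Accessory subunits of the membrane arm had narrower median ranges than the other roles by the mean of targets, while by the brightest target the 4 assembly factors were narrower still, at 0.30. The 9 genes of its proximal part had a median range of 0.32, with Ndufa3 at 0.19. Ndufa10, a subunit with a kinase-like fold, read 6514 under Control, 7376 under ATRA, 8118 under ATRA+NIC and 6714 under NIC, highest with both creams. Ndufa8 read 1805, 2152, 2345 and 1873 in that order, and Ndufa1 593, 655, 662 and 538. In both genes the 2 arrays with ATRA were above the 2 without. Ndufc2 ran differently, at 3039, 2713, 2935 and 3891, with NIC the highest.

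Ndufa13, also studied as a regulator of cell death, averaged 218 under Control, 312 under ATRA, 233 under ATRA+NIC and 270.5 under NIC. Its second target lay below 2 times the random probes on every array. The bright target alone read 1276, 2383, 1806 and 2294, so ATRA minus Control was 0.90 and NIC minus Control 0.85 for that target, against 0.52 and 0.31 for the mean. This was the highest ATRA minus Control value of any complex I gene by its brightest target, and still under 2-fold.

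The 10 genes of the distal membrane arm had a median range of 0.36, and Ndufb10 had a range of 0.17 by the mean of its targets and of 0.30 by its brightest. As the mean it read 3529, 3744, 3692 and 3979 under Control, ATRA, ATRA+NIC and NIC. Ndufb7 read 2329, 2227, 2395 and 2529, a range of 0.18. In ATRA+NIC minus NIC 1 of these 10 genes, Ndufb9, was above 0, against 17 of the 41 complex I genes and 7805 of all 15597 genes. In ATRA minus Control 7 were, against 27 of the 41 and 8512 of the 15597. Both counts depend on the target. By the brightest target Ndufb2 was also above 0 in ATRA+NIC minus NIC, at 0.03, and Ndufb8 was below 0 in ATRA minus Control, at -0.33. Ndufb4 read 1989.5 under Control and 2419, 2628 and 2816 under ATRA, ATRA+NIC and NIC, and Ndufab1, the mitochondrial acyl carrier protein, 1617, 1938, 1436 and 1445. Gm4459, described as similar to Ndufab1, read 1253, 1491, 1190 and 1792 in the same order, highest on NIC. Probes of such a pair may read each other's transcripts, so the single values of Ndufab1 are uncertain. Ndufb2 was lowest on ATRA, at 969 against 1249 under Control, and Ndufb11 lowest on ATRA+NIC, at 4692 against 5651.

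Ndufb8 had the lowest value of the 41 in ATRA+NIC minus ATRA, at -0.83. It averaged 810 under Control, 816 under ATRA, 459 under ATRA+NIC and 725 under NIC. The low ATRA+NIC value lies in its dim target, which read 160, 204, 54.4 and 125. Its bright target read 4110, 3265, 3875 and 4211, with ATRA+NIC minus ATRA at 0.25, so the direction turns with the target.

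**Figure D4:**
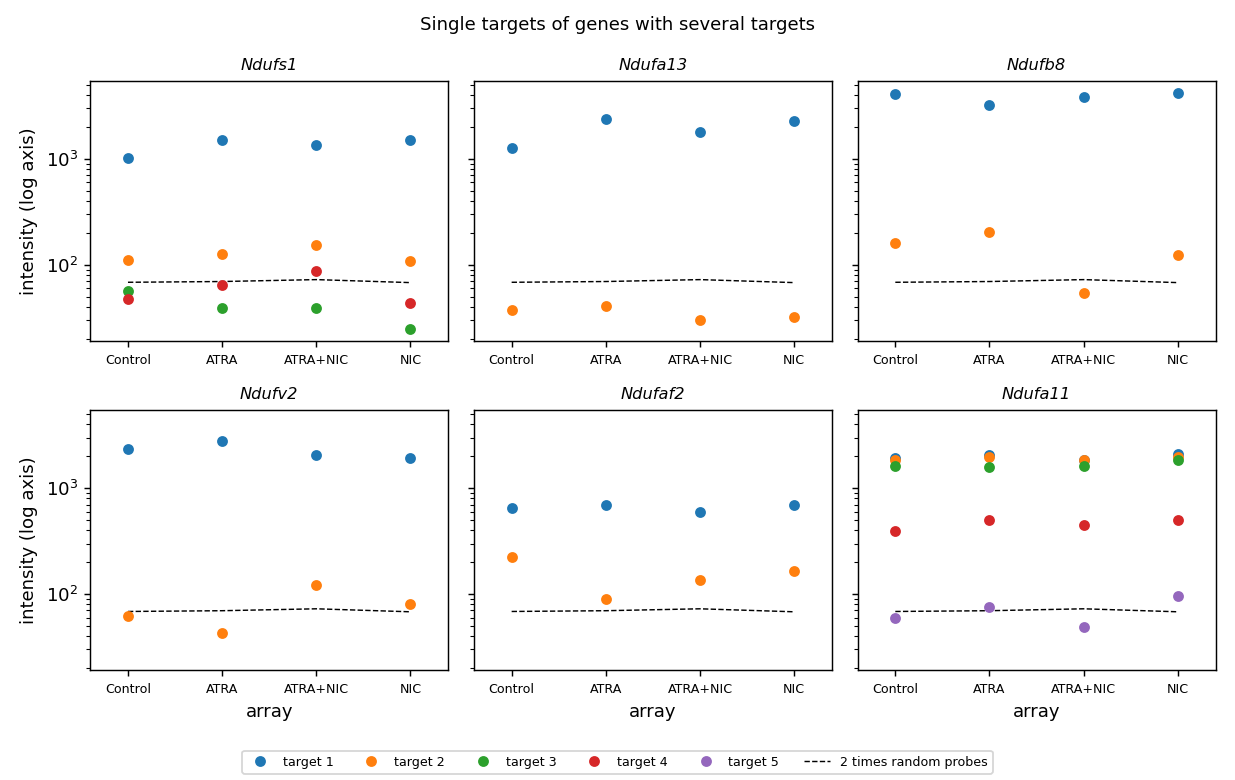
Intensity (log axis) of each single target of 6 complex I genes on the 4 arrays, 1 colour a target, with 2 times the random probes as a dashed line. In Ndufs1, Ndufa13, Ndufb8 and Ndufv2 a bright target stands well above dim ones that lie near or below the dashed line on some arrays and follow another order.

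Assembly factors, 4 genes by array name, went different ways. Ndufaf4 and Ndufaf3 cooperate in early assembly around the quinone module. Ndufaf4 (chromosome 4, 24825260 to 24829364) read 380.5 under Control, 610 under ATRA, 425 under ATRA+NIC and 593 under NIC. It was higher with either cream alone, by 0.68 and 0.64, and close to Control with both, at 0.16. Ndufaf3 read 138, 113, 110 and 125 in the same order, a range of 0.33. Ndufaf1, which helps build the membrane arm, read 239, 248, 288 and 226, and by its brightest target 278, 261, 290 and 313, where NIC turns from lowest to highest. Ndufaf2, a paralog of Ndufa12 that acts late in assembly, averaged 382, 250, 282 and 339, lowest on ATRA at -0.62 from Control, while its brighter target read 647, 697, 591 and 700, a difference of 0.11. Of all 41 genes it had the lowest mean of both ATRA differences, -0.44, and that value rests on the dimmer target.

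Ndufb5, a distal membrane arm subunit, was, like Ndufaf4, highest with either cream alone, with 3462 under Control, 4934 under ATRA, 3581 under ATRA+NIC and 5036 under NIC. Its ATRA differences were 0.51 and -0.49 and its NIC differences 0.54 and -0.46. With both creams it was 0.05 above Control. This order rests on 4 single arrays and was not tested. The 250 bases before the start site of Ndufaf4 and Ndufb5, with those of Ndufs3, which was lowest with both creams, are shown so that the letters can be read beside these values. The 3 genes were picked after their values were seen. Capitals mark a nuclear respiratory factor match in Ndufaf4 and an ETS match in Ndufs3, and all are 5′ to 3′ on the gene's strand, from RefSeq on GRCm38.p6. Only 4 of the 11 patterns searched are marked, and an SP family match, GGGCGGGG, in Ndufaf4 stays in lower case.
Ndufaf4, chr4:24897833-24898082, plus strand: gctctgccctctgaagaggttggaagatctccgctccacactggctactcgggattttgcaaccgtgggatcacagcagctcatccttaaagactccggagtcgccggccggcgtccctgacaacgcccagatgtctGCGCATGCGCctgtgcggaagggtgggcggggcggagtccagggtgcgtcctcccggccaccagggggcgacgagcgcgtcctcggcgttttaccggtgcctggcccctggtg
Ndufb5, chr3:32736813-32737062, plus strand: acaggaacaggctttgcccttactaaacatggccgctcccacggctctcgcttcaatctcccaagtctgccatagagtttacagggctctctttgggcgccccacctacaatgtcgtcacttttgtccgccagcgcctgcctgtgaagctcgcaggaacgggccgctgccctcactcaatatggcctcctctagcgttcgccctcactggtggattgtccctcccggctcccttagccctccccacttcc
Ndufs3, chr2:90904722-90904971, minus strand: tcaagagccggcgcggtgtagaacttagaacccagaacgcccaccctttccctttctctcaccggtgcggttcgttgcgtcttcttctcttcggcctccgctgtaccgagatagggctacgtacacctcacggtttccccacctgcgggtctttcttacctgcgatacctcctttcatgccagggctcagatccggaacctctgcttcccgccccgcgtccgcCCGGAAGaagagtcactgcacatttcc

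Nuclear respiratory factor (gene symbol Nrf1), ETS family factors, YY1 and estrogen-related receptors are known regulators of respiratory chain genes. Motifs were searched on both strands in windows of 300 bases, 250 before and 50 after the start, which RefSeq gives for 36 of the 41 genes in 38 windows. In all 11 patterns were searched, several of them overlapping forms of one motif, and all 11 are given. The nuclear respiratory factor motif with a free base was in 9 of the 38 windows, against 4.60% of all 32851 windows, and its form without a free base in 2, against 0.971%. The ETS pattern CCGGAAG was in 4, against 8.86%, and ACCGGAAGT in 1, against 1.10%. The YY1 motif was in 4 windows in its shorter and 4 in its longer form, against 0.852% and 0.986%. The receptor pattern TCAAGGTCA was in 0, against 0.423%, and its shorter form AAGGTCA in 3, against 4.72%. ACGTG, the core read by hypoxia-inducible factor, was in 8, against 19.6%, and CACGTG, an E-box that contains it, in 3, against 7.15%. The SP family pattern GGGCGGGG was in 9, against 17.6%. A match describes the letters only.

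Ndufa4 and Ndufa4l2 carry the Nduf name, though the product of Ndufa4 is now counted as a subunit of complex IV. Ndufa4 read 9839 under Control, 10274 under ATRA, 11321 under ATRA+NIC and 8272 under NIC. Ndufa4l2, its paralog and a known target of hypoxia-inducible factor (chromosome 10, 126951994 to 126954210), read 1536 under Control, 954 under ATRA, 1261 under ATRA+NIC and 796 under NIC. Control was the highest, and NIC the lowest at -0.95, the lowest NIC minus Control value of the 41. Its ATRA differences had opposite signs, -0.69 without nicotinamide and 0.66 with it. With quantile normalization its NIC minus Control value passed 2-fold, the only 2-fold call among the 41 under that setting.

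The same cream was compared in both backgrounds over differences that share no array. With ATRA 12 of the 41 genes were higher in both, 9 lower in both, 15 higher without and lower with nicotinamide and 5 the reverse. Over all genes the shares in that order were 29.3%, 24.7%, 25.2% and 20.7%. Across the 41 genes both ATRA differences had a Pearson r of -0.08, as a description over genes that share 4 arrays, and across all genes 0.32. With NIC 14 were higher in both and 6 lower in both, against 24.8% and 25.2% of all genes, with r = -0.05 across the 41 genes and 0.04 across all.

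Control was the array on which most complex I genes were lowest, 18 of 41 or 43.9%, against 27.1% of all genes. ATRA was the lowest array for 9, ATRA+NIC for 8 and NIC for 6, against 18.7%, 26.1% and 28.1% of all genes. With each array centred on its median the Control count was 19, against 29.6% of all genes, with quantile normalization 16, against 25.9%, and by the brightest target 18, against 27.6%. The differences are small, and the pattern was picked out after its values were seen. Other lists differed in this count. It was 2 of 4 for complex II, 6 of 9 for complex III, 4 of 16 for complex IV and 8 of 16 for complex V. It was 19 of 30 for mitochondrial ribosomal proteins, 6 of 17 for the tricarboxylic acid cycle, 2 of 9 for iron-sulfur cluster assembly, 4 of 12 for other complex I assembly factors and 1 of 14 for glycolysis. All these counts rest on the single Control array.

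The other respiratory complexes were also close in level on the 4 arrays. Over 45 subunits of complexes II to V the median range was 1.33-fold, and their medians were 0.15 and 0.02 in the ATRA differences and 0.06 and 0.05 in the NIC differences. Of 45, 0 were at least 2-fold apart in ATRA minus Control, 1 in ATRA+NIC minus NIC, 0 in NIC minus Control and 2 in ATRA+NIC minus ATRA. Both creams against Control had 2. The genes behind these counts were Cox4i2, a complex IV isoform, which read 114 under Control, 186 under ATRA, 49.7 under ATRA+NIC and 100.1 under NIC, and Atp5j, a coupling subunit of the ATP synthase, at 912, 1048, 2457 and 1451. Under ATRA+NIC Cox4i2 lay below 2 times the random probes. Sdhd, a membrane anchor of complex II, was higher on both ATRA arrays, at 2289 and 2064 under Control and NIC against 3392 and 3823 under ATRA and ATRA+NIC.

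Of 12 assembly factors of complex I without an Nduf name, 0 were 2-fold apart in any of the 5 differences. Acad9, an acyl-CoA dehydrogenase relative that acts in assembly, read 2962, 2792, 3352 and 3011 under Control, ATRA, ATRA+NIC and NIC. Tmem126b read 206, 350, 218 and 245, highest on ATRA, and Nubpl, which delivers iron-sulfur clusters, 162, 112, 103 and 97.6, highest on Control. Regulators of mitochondrial biogenesis, 10 genes, had medians of 0.19 and 0.01 in the ATRA differences and 0.15 and 0.13 in the NIC differences. Ppargc1a, a coactivator of this programme, read 120, 106, 155 and 133, and Ppara, a lipid-sensing receptor, 684, 1163, 1469 and 861, higher by 0.77 in both ATRA differences. Tfb1m of the same list went the other way with both creams, at 113, 148, 69.2 and 158. Its ATRA+NIC minus NIC was -1.19 and its ATRA+NIC minus ATRA -1.10, with the ATRA+NIC value near background. In the limma fit 0 genes of these lists passed for either cream.

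**Figure D5:**
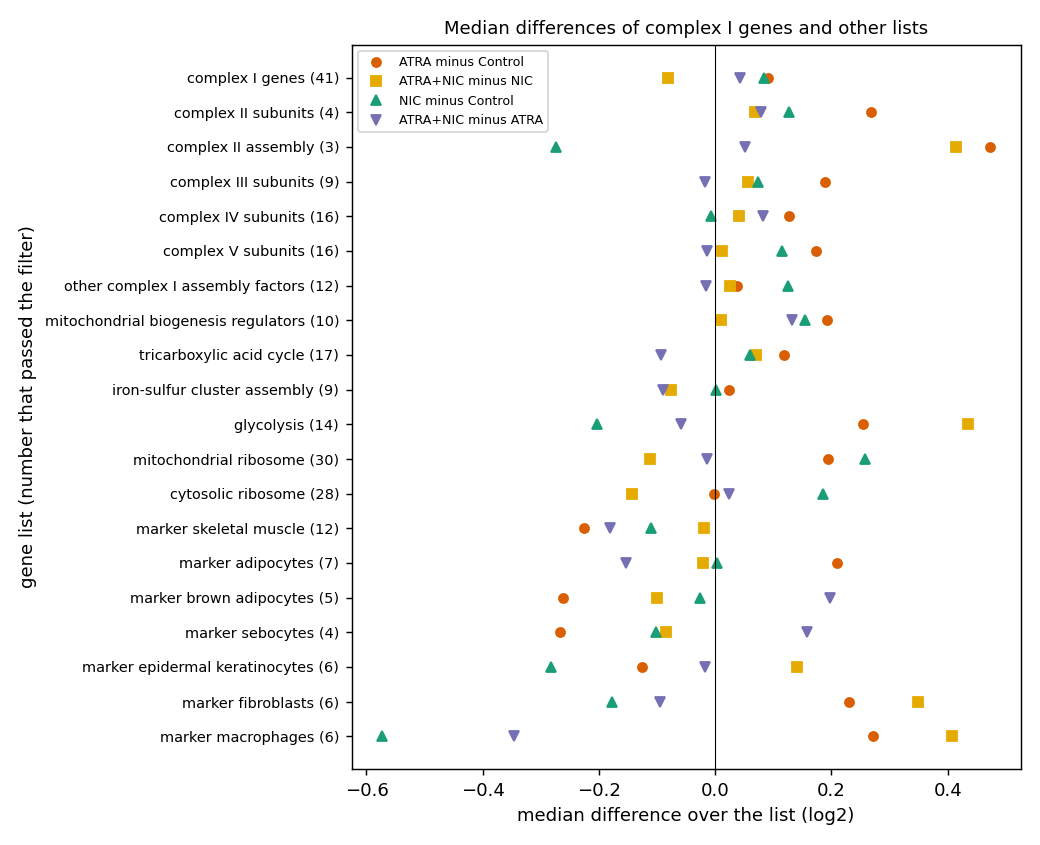
Median log2 difference of each gene list (horizontal axis) in 4 differences, with the number of genes beside each name. Complex I genes lie within 0.1 of 0 in all 4, and lists of other mitochondrial genes lie mostly near them, while the 3 complex II assembly factors, glycolysis genes and macrophage markers spread wider. Hair genes are left out of the plot since their medians are several log2 units away.

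Genes of other tissues and cell types were read beside these values, since muscle, fat and hair differ in mitochondrial content. Skeletal muscle markers, 12 of 12 above the filter, summed to 43807 under Control, 49222 under ATRA, 42914 under ATRA+NIC and 48682 under NIC, with medians of -0.23 and -0.02 in the ATRA differences and -0.11 and -0.18 in the NIC differences. Of these 12 genes 0 were at least 2-fold higher in any of the 5 differences. Lower by that much were 2 in ATRA minus Control, 1 in NIC minus Control and 2 in ATRA+NIC minus Control, namely Myh4 and Actn3. Of all genes 5.85%, 5.90% and 7.33% were. Adipocyte markers, 7 of 8 read on the array, summed to between 12461 and 14938. Among 5 brown adipocyte markers Ucp1 read 179 under Control, 55.2 under ATRA, 88.4 under ATRA+NIC and 36.4 under NIC, near background on NIC. The medians of these 5 were -0.26 and -0.10 in the ATRA differences and -0.03 and 0.20 in the NIC differences. Ucp1 was not typical of them. In NIC minus Control it stood at -2.30, Cidea at -0.53, Elovl3 at -0.02, Cox8b at -0.03 and Cox7a1 at 0.64. Hair shaft and matrix genes, 7 of 12 read on the array, moved far more, summing to 40359 under Control, 1935 under ATRA, 4435 under ATRA+NIC and 102473 under NIC. Keratinocyte markers summed to 172594, 167158, 175147 and 147579 in the same order, and macrophage markers to 20035, 25527, 17788 and 13208. In the limma fit 5 of the 7 hair genes fell with ATRA, and 0 genes of the other marker lists passed. The part of these cell types in the complex I values was not tested.

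A pair of targets with no gene name lie on the mitochondrial chromosome and are described in the files as NADH dehydrogenase 1 and 4, core subunits of the membrane arm made inside the mitochondrion. The first (chromosome M, 1148 to 3703) read 36800 under Control, 43473 under ATRA, 35483 under ATRA+NIC and 31391 under NIC. The second (9875 to 11542) read 34051, 35595, 37095 and 30060. Both were lowest on NIC, at -0.23 and -0.18 from Control. They lie near the top of the scale, since the highest intensity on an array was between 51026 and 54307, and small differences there are uncertain. These targets were chosen after their values were seen.

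By gene ID 8 further genes carry an Nduf symbol today under another array name. The assembly factor Ndufaf5 read 304, 423, 453 and 423 under Control, ATRA, ATRA+NIC and NIC, lowest on Control. Ndufaf6 read 48.9, 69.8, 88.8 and 114, with NIC minus Control at 1.22, but its Control value lies under 2 times the random probes. Ndufaf7 read 148, 157, 186 and 189, and Ndufaf8 185, 160, 204 and 231. Ndufb4c, a near copy of Ndufb4, read 1862, 2109, 2511 and 2427. Ndufa11b, Ndufs5-ps and Ndufs6b also share the name of a member. In the same order Ndufa11b read 926, 903, 803 and 729, and Ndufs5-ps 2327, 2702, 3143 and 2249. Ndufs6b read 1651, 1424, 2066 and 2002. Probes of a gene and its near copy may read each other's transcripts, so single values of such pairs are uncertain.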

How the data were processed

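Per the labels and file headers, RNA of mouse skin was hybridised to 1-colour Cy3 NimbleGen arrays. The authors deposited 1 linear intensity per target and array, headed as an RMA value, over 3 probes for 44155 of 44170 targets. RMA software is not given in the sources used here. Logarithms to base 2 were taken with no further scaling, and targets of a gene name were averaged (2284 targets without a name stayed separate). Genes were compared where they reached the array's median over all targets (percentile 50) on at least 1 array. The additive model used limma 3.58.1 in R 4.3.3 with an adjusted p threshold of 0.05. Differences of 2 arrays have no test and were counted from 2-fold. A deposited value table of 24323 targets holds the same intensities (largest relative difference 9.0e-07) where all 4 arrays reach 50. A workbook with 4 columns was not used here. The members and lists were chosen with earlier results of these data known. Genes named were the core subunits, assembly factors, the 6 highest and 6 lowest members by each cream's mean difference and the members at least 2-fold apart (0). The rule also named 2 highest and 2 lowest genes of each other list, of which few are given. Every further gene named, members such as Ndufb5, Ndufa13 and Ndufb10 included, was chosen after its values were seen. The promoter search, the printed promoters, the array order and the brightness quartiles were added after values were seen. Signal over background limits dim targets. The single values of 1 member are not reported here, and it is counted in the totals but not drawn by name.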

Additional observations from a re-analysis of the deposited data

Results flagged for a closer look

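Ndufa4l2, the paralog of the complex IV gene Ndufa4, was flagged because its ATRA differences ran in opposite directions, each by at least 1.5-fold. ATRA minus Control was -0.69 and ATRA+NIC minus NIC was 0.66. The difference between both was not tested, since each group is 1 array. Over all genes 4.46% ran in opposite directions by that much, a larger share than 1 of the 41, so the gene is not unusual in this. The size of 1.5-fold was asked for after values were seen. Without it, with ATRA 15 of the 41 genes were higher without and lower with nicotinamide and 5 the reverse, against 25.2% and 20.7% of all genes. With NIC the counts were 13 and 8, against 27.6% and 22.4%.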

How the results depend on the processing

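Each array centred on its median, quantile normalization, the brightest target, current symbols, no filter, percentile 75 and the deposited value table were tried in turn, with 1.5-fold and an intensity trend in limma. All 35 medians moved by less than 0.1 log2, a mark chosen after values were seen. That mark is larger than most of the medians themselves, so it is a loose check. With current symbols the median of ATRA+NIC minus NIC went from -0.0819 to -0.0245. That of ATRA+NIC minus ATRA went from 0.0427 to 0.0953. Counts of complex I genes at least 2-fold apart stayed at 0 in 68 of 70 cases. Some of these cases could not differ from 0. Without a filter the 41 genes keep the same values, and percentile 75 only leaves 35 of them, with values unchanged. The exceptions were 1 gene lower in NIC minus Control with quantile normalization, Ndufa4l2, and 1 gene higher in it with current symbols, Ndufaf6. At 1.5-fold the genes higher and lower numbered 3 and 2 for ATRA against Control, 1 and 1 for ATRA+NIC against NIC, 4 and 1 for NIC against Control, 1 and 1 for ATRA+NIC against ATRA and 2 and 2 for ATRA+NIC against Control, since a lower mark counts more genes. The additive fit called 0 complex I genes in 32 of 32 cases, intensity trend included. These cases could hardly differ from 0 either, since the main fit called few of all genes for ATRA and 0 for NIC. The settings that change only the filter also leave the values of the complex I genes as they were. No paired analysis was possible because each group is 1 array. By the brightest target 10 of the 12 genes with several targets turn direction in at least 1 difference, all but Ndufa11 and Ndufa13.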
